A study of Mus musculus with 22 samples.

Results

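Voltage-gated calcium channels are described here through 10 of their subunit genes, measured in single mouse astrocytes whose calcium response to ethanol (EtOH) had been recorded. The 10 genes were taken by symbol out of the 23453 gene symbols in the count table. They comprised 4 pore-forming subunits (Cacna1a, Cacna1c, Cacna1d and Cacna1g), 4 beta subunits (Cacnb1, Cacnb2, Cacnb3 and Cacnb4) and 2 alpha2delta subunits (Cacna2d1 and Cacna2d2). Of these, 9 had a read in at least 5 of the 22 cells, as did 12719 genes in all, and Cacna1g did not. The cells were primary cortical astrocytes of C57BL/6 pups aged P0-P1, and the cultures had been shaken and given cytosine arabinoside against other cell types. All 22 cells were loaded with the calcium dye Fluo-4, exposed to EtOH and drawn into a micropipette, the NR cells included, so that no type was free of EtOH. The 6 S-type cells had given a sustained calcium signal, the 6 T-type cells a transient signal and the 5 M-type cells a mixed signal. The 5 NR cells had not responded.

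Voltage-gated calcium channels open on depolarization of the membrane and let calcium into the cell. The pore subunit carries the current and sets the voltage at which the channel opens. Cacna1c and Cacna1d encode L-type pores, Cacna1a encodes the P/Q-type pore, and Cacna1g encodes a low-voltage-activated pore whose current is also called T-type, a name unrelated to the T-type astrocytes. A beta subunit binds the pore inside the cell and promotes its arrival at the membrane, and an alpha2delta subunit sits on the outer face and is the target of gabapentin. High-voltage-activated channels usually carry all 3 kinds of subunit, whereas low-voltage-activated pores do not depend on them. Astrocytes are electrically silent cells in which most calcium signals start from internal stores.

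Total counts were 2937786 to 22131076 reads per cell, and the RNA had been amplified in 2 rounds without molecular identifiers. Each count was divided by the size factor of its cell, and levels are means of these normalized counts over the cells of a type. The T-type cells J162_16 and J163_18 stood apart from the other cells. Their size factors were 0.276 and 0.183, against 0.548 to 2.31 in the other 20 cells, and they had reads of 6319 and 7442 genes, against 8647 to 13070. J162_16 had 9 reads of the 10 subunits in all, although its total of 12564138 reads was not small, and J163_18 had 46. The log2 ratios and counts that rest on T-type are therefore also given without these 2 cells. Since the labels do not tie a cell to an animal or a culture, each type counted as 1 sample and no difference between types was tested. The intervals given are 95% intervals of counting error only, and values after ± are SDs over cells. Values of single cells are listed in the order J172_23, J173_25, J174_13, J175_18 and J176_25 for M-type and J182_2, J183_1, J185_4, J186_5 and J187_6 for NR.

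All 14 astrocyte markers had reads in every type, although S100b was read in only 16 of the 22 cells. The summed level of these markers was 1694.71 to 11716.6 counts per 1000000 reads (CPM) over the 22 cells. Of the 14 neuronal markers, 6 to 12 had reads in a type with Slc17a7 at 0 in all. Their sum was 91.9 to 611 CPM in NR, 100.4 to 536 CPM in M-type, 58.1 to 2076 CPM in S-type (highest in J151_5) and 38.1 to 431 CPM in T-type. In J151_5 the astrocyte sum was lower than the neuronal sum, at 1849 CPM. The 11 markers of the oligodendrocyte lineage summed to 34.0 to 3329 CPM, with 7 to 9 of them read in a type and Sox10 at 0 in all. The 11 microglial markers (4 to 10 read in a type) summed to 0.735 to 48.0 CPM in NR and to at most 5.72 CPM in the other types, and the 8 endothelial markers (3 to 5 read) to at most 200.005 CPM, with Cldn5 and Cdh5 at 0 in all types. The 12 markers of mural cells, muscle and fibroblasts had 5 to 9 of them read in a type, with Rgs5 and Myh11 at 0 in all. They summed to 211 to 1445 CPM in NR, 61.1 to 2359 CPM in M-type, 199.8 to 7636 CPM in S-type and 95.4 to 4711 CPM in T-type. This sum was above the astrocyte sum in J155_9 (7636 against 3154 CPM), J161_9 (4711 against 3425 CPM) and J165_23 (4387 against 2159 CPM). Over the 22 cells most reads of this list were of Acta2 (539975, next Col1a2 with 27206). Most reads of the oligodendrocyte list were of Olig1 (203458, next Olig2 with 20899). Most reads of the neuronal list were of Stmn2 (78888) and Map2 (36221), with Tubb3 next (4308). The part of these lists in the results on the channel subunits was not tested.

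The subunit genes were read in all types but unevenly between cells. The 10 genes took 14710 reads in NR, 10073 in M-type, 9165 in S-type and 5525 in T-type. Their summed share of a library was 83.5 to 323 CPM in NR (median 123), 42.3 to 145 CPM in M-type (median 102), 52.6 to 185.5 CPM in S-type (median 97.5) and 0.716 to 203 CPM in T-type (median 58.2). A pair of a gene and a cell had at least 10 reads in 68% of the pairs in NR, 64% in M-type, 53.3% in S-type and 30% in T-type. With every cell thinned at random to the 2937786 reads of the smallest library, these shares were 50%, 44%, 43.3% and 16.7%. The T-type share was 40% without J162_16 and J163_18, and 20% after thinning. Over all 12719 genes T-type was likewise the type with the fewest pairs of at least 10 reads, at 51.4% of pairs (58.1% without these 2 cells) against 71.5% in NR, 72.5% in M-type and 72.9% in S-type. After thinning, the shares over all genes were 44.4% in T-type (49.3% without these 2 cells), 59.9% in NR, 60.5% in M-type and 62.3% in S-type.

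Between genes, levels were set side by side per length, as reads per kilobase of exon and per 1000000 reads (RPKM). The paper kept to 2 rounds of amplification to limit shortened products and 3′ bias. Reads therefore need not scale with exon length, and the order of genes by RPKM is approximate. Averaged over the 22 cells, Cacnb4 led with 3.88 ± 6.29 RPKM (SD over cells), followed by Cacna2d1 with 2.41 ± 2.47 RPKM. Cacnb2 (1.14 ± 2.62 RPKM), Cacna1a (1.12 ± 1.04 RPKM), Cacnb3 (1.07 ± 2.40 RPKM) and Cacna1d (0.806 ± 0.882 RPKM) lay close to each other, and their spread over cells was far wider than the gaps between them. Cacnb1 (0.207 ± 0.379 RPKM), Cacna1c (0.107 ± 0.178 RPKM) and Cacna2d2 (0.060 ± 0.148 RPKM) were lower. By mean normalized count, which is not corrected for length, 59.5% of the 12719 genes lay below Cacnb4 and 6.84% below Cacna2d2.

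**Figure D1:**
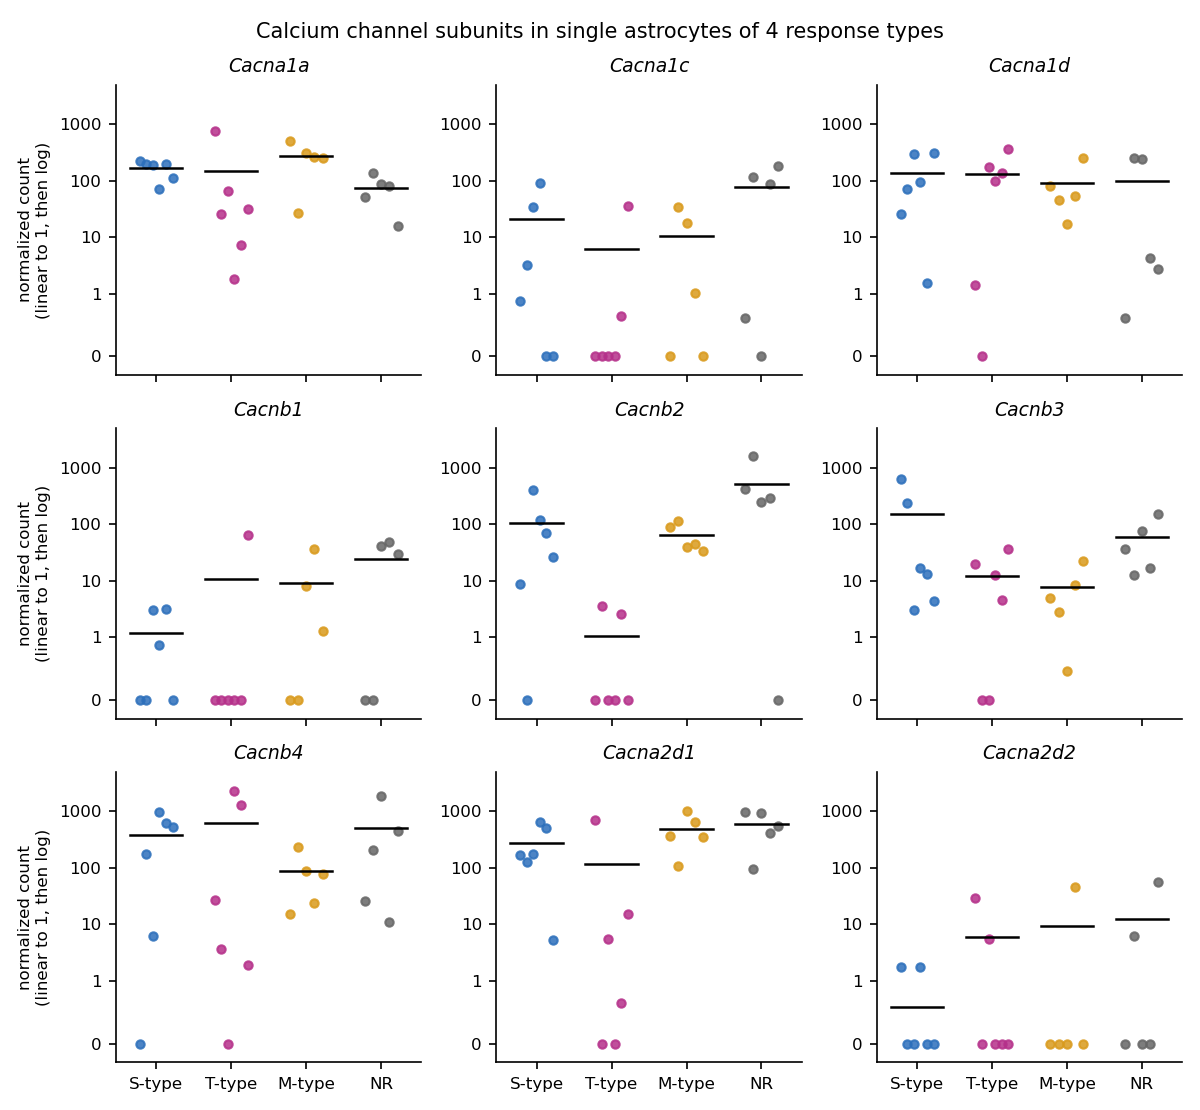
Normalized count of 9 calcium channel subunits in each cell (vertical axis, linear up to 1 and logarithmic above), by response type (horizontal axis). Each point is 1 cell and each black bar is the level of the type, the mean over its cells. In Cacnb2 the 6 T-type cells lie at 0 to 3.63 and the 5 M-type cells at 33.7 to 111, and in the other panels the cells of any 2 types overlap.

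Of the pore subunits, Cacna1a (chromosome 8, 84388440 to 84640246, plus strand, GRCm38) had a read in all 22 cells. Its normalized counts were 70.1 to 223 in S-type (median 193) and 1.82 to 738 in T-type (median 28.4). The M-type cells had 501, 26.6, 308, 264 and 249, and the NR cells 51.6, 134, 85.6, 79.5 and 15.8. The level was highest in M-type (270 ± 169, SD over 5 cells) and lowest in NR (73.3 ± 43.7). The T-type level of 145 ± 291 came largely from J161_9, which held 84.9% of it, and was 26.2 without that cell. The type levels thus put T-type beside S-type, whereas 5 of the 6 T-type cells lay below every S-type cell. The share of all genes with such a pattern was not counted, and T-type had the fewest pairs of at least 10 reads over all genes as well.

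Cacna1c (chromosome 6, 118587240 to 119196418, minus strand) was read in 13 cells. The NR cells had normalized counts of 0.607, 115, 0, 86.1 and 179, and the M-type cells 0, 33.6, 17.8, 1.04 and 0. In S-type the counts ran from 0 to 90.2 with a median of 2.07, and in T-type from 0 to 35.9 with a median of 0. Only 2 T-type cells had any read, 56 reads in J166_25 and 1 in J165_23. NR had the highest level (76.2 ± 77.0) and T-type the lowest (6.09 ± 14.6), and the cells of all types overlapped.

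Cacna1d (chromosome 14, 30039939 to 30491455, minus strand), the other L-type pore, was read in 21 cells. The normalized counts were 1.57 to 309 in S-type (median 83.1) and 0 to 364 in T-type (median 118). They were 79.5, 45.5, 16.9, 53.4 and 251 in M-type and 0.607, 248, 244, 4.19 and 2.78 in NR. Within NR the cells split, with 2 cells at 244 and 248 and 3 cells at 0.607 to 4.19. The 4 type levels lay between 89.3 and 134, a narrower span than the SD over cells within any type, which was 93.3 to 136. In 4 of 6 T-type cells Cacna1d was the most read pore per length, and Cacna1a was so in 4 of 5 M-type cells.

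Cacna1g (chromosome 11, 94408391 to 94474198, minus strand) had 1 read in the whole series, in S-type cell J154_8. The count of 0 in the other 3 types allows up to 0.0336 CPM in NR, 0.0290 CPM in M-type and 0.0401 CPM in T-type, taking 3 reads over the summed totals of a type. No ratio is given for it.

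Across the cells the high-voltage pore was mostly a matter of Cacna1a or Cacna1d. Per length, Cacna1a led in 10 cells, Cacna1d in 10 and Cacna1c in 1, NR cell J187_6. The remaining cell, T-type J162_16, had fewer than 10 reads of these pores. In the 21 cells the leading pore took 41.9% to 99.8% of the pore RPKM, with a median of 84.1%. By reads alone, not divided by length, Cacna1c was ahead of Cacna1a in J186_5 (144 against 133). Likewise Cacna1d was ahead of Cacna1a in J176_25 (582 against 577).

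Of the beta subunits, Cacnb2 (chromosome 2, 14603088 to 14987908, plus strand) had the widest ratio between the highest and the lowest type level, also among all 9 members. It had 5 reads in the 6 T-type cells together (95% Poisson interval 1.62 to 11.7), 4 of them in J165_23 and 1 in J162_16. The 5 M-type cells had 145, 159, 85, 87 and 78 reads, the NR cells 695, 2859, 340, 476 and 0, and the S-type cells 0 to 669 with a median of 62.5. As normalized counts this gave levels of 515 ± 637 in NR, 105 ± 154.5 in S-type, 64.1 ± 34.7 in M-type and 1.04 ± 1.64 in T-type. NR cell J183_1 held 63.0% of the NR level, which was 238 without it.

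Every M-type cell lay above every T-type cell in Cacnb2, and this was the only case among the 9 members and the 6 pairs of types in which the cells did not overlap. Over all 12719 genes the cells did not overlap in 0.739% for T-type and M-type, 0.771% for S-type and T-type, 0.464% for S-type and M-type, 0.409% for S-type and NR, 0.991% for T-type and NR, and 0.598% for M-type and NR. S-type cell J151_5 and NR cell J187_6 had no Cacnb2 read, so these types overlapped T-type. The level was 101-fold lower in T-type than in S-type (log2 ratio -6.67, interval -8.29 to -5.44) and 496-fold lower than in NR (log2 ratio -8.96, interval -10.58 to -7.73). Leaving out each cell in turn moved the first log2 ratio between -7.66 (without J162_16) and -5.43 (without J153_6) and the second between -9.95 (without J162_16) and -7.84 (without J183_1). Without J162_16 and J163_18 they were -7.34 and -9.63. Against NR, the level was 4.89-fold lower in S-type and 8.02-fold lower in M-type. Without J183_1 these log2 ratios moved from -2.29 to -1.18 and from -3.004 to -1.89, and without J153_6 the first was -3.52.

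Cacnb4 (chromosome 2, 52428320 to 52676831, minus strand) was the beta subunit with most reads per length in 10 of the 20 cells with at least 10 beta reads. Its normalized counts were 0 to 957 in S-type (median 353) and 0 to 2318 in T-type (median 15.2). They were 15.0, 235, 86.3, 23.3 and 78.2 in M-type and 25.5, 209, 1872, 10.8 and 439 in NR. The T-type level of 606 ± 982 came from 2 cells, J164_19 with 2318 and J165_23 with 1283, while the other 4 T-type cells had at most 26.7. The NR level of 511 ± 780 came largely from J185_4, which held 73.2% of it. M-type was the lowest at 87.5 ± 88.2, which was 5.85-fold below NR (log2 ratio -2.55, with -0.97 without J185_4 and -3.33 without J173_25). Of the exonic length of Cacnb4, 16.0% overlaps A430018G15Rik on the opposite strand, as 7.32% of that of Cacnb2 overlaps other genes, and whether the counting used the strand is not given.

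Cacnb3 (chromosome 15, 98630840 to 98644529, plus strand) was highest in S-type, at 150 ± 251, where J150_3 with 628 and J151_5 with 237 stood above the other 4 cells at 3.05 to 16.6. The NR cells had 37.0, 12.5, 76.9, 16.7 and 150, and the M-type cells 5.00, 2.80, 0.469, 8.30 and 22.5. In T-type the counts were 0 to 35.9 with a median of 8.65. The level was 12.4-fold lower in T-type than in S-type (log2 ratio -3.63) and 4.83-fold lower than in NR (log2 ratio -2.27). Without J150_3 the first log2 ratio was -2.18, without J166_25 they were -4.34 and -2.99, and without J187_6 the second was -1.56. As a ratio of medians over cells the first was -0.79, short of 2-fold. The log2 ratios were -3.05 and -1.69 without J162_16 and J163_18.

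Cacnb1 (chromosome 11, 98001508 to 98023034, minus strand) was read in 10 cells. In T-type all 101 of its reads came from J166_25, and in S-type 3 cells held 10 reads between them. The M-type cells had normalized counts of 0, 0, 7.97, 35.8 and 1.30, and the NR cells 0, 0, 40.3, 49.0 and 29.7. NR had the highest level (23.8 ± 22.8) and S-type the lowest (1.18 ± 1.52). Which beta subunit led per length also varied, with Cacnb4 ahead in 10 cells, Cacnb2 in 5, Cacnb3 in 3 and Cacnb1 in 2. By reads alone, Cacnb4 was ahead of Cacnb3 in J161_9 (19 against 14), and Cacnb2 of Cacnb1 in J175_18 (87 against 69). The leading member took 49.4% to 99.6% of the beta RPKM of a cell (median 74.8%). Within S-type, J150_3 drew 99.6% of it from Cacnb3, J153_6 93.6% from Cacnb2 and J154_8 88.9% from Cacnb4.

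**Figure D2:**
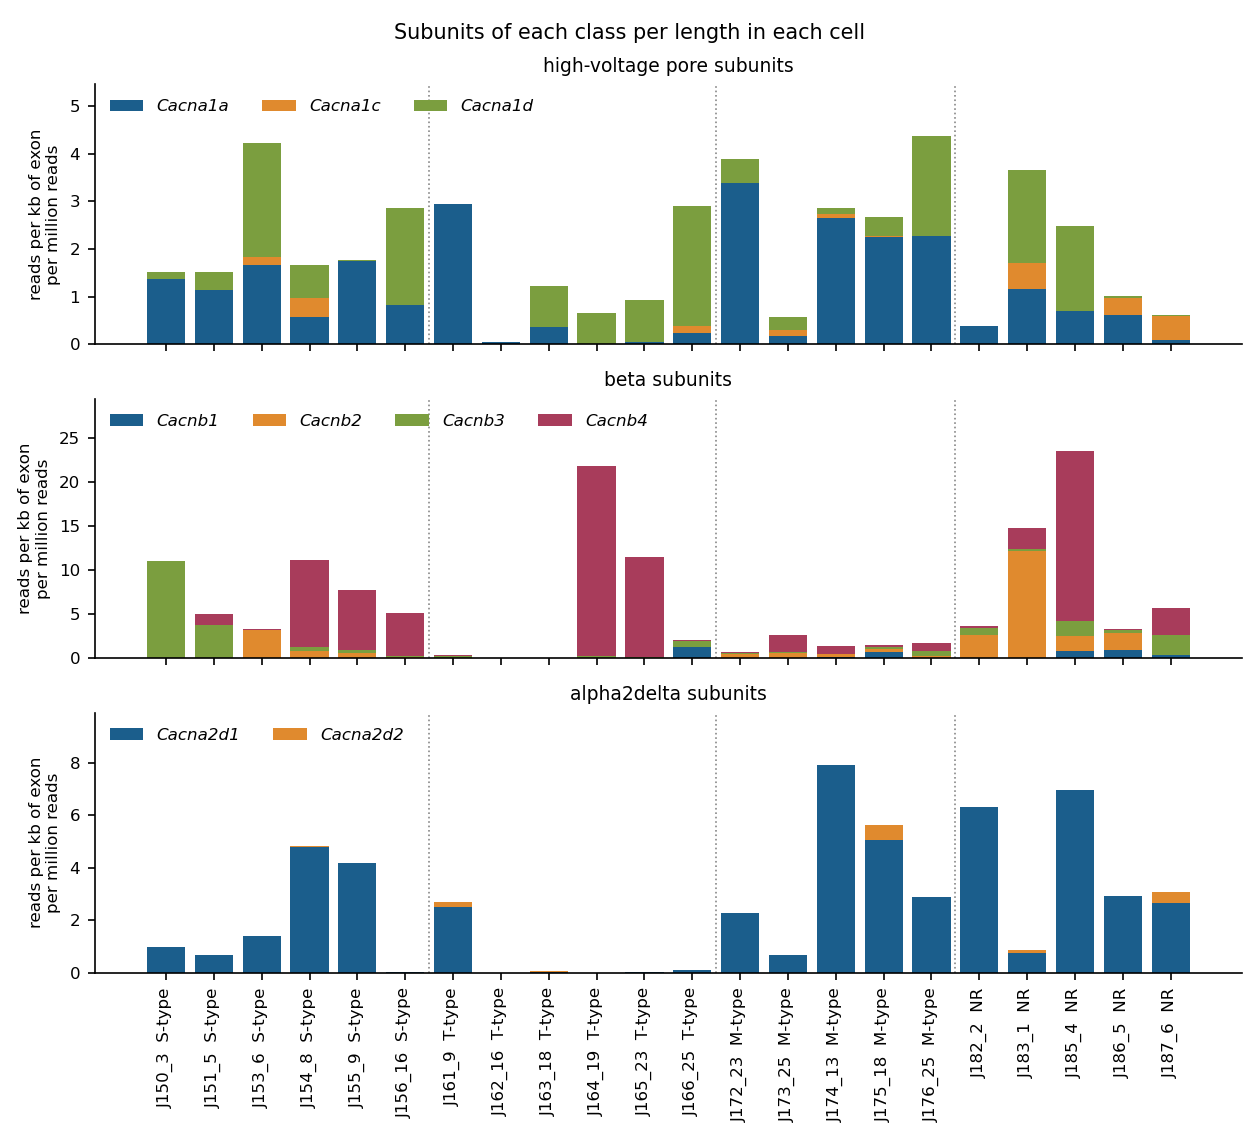
RPKM (vertical axes) of the high-voltage pore subunits, the beta subunits and the alpha2delta subunits in each of the 22 cells (horizontal axis, dotted lines between types), with 1 colour per gene. The alpha2delta bars are nearly all Cacna2d1 and are close to 0 in 5 of the 6 T-type cells, while the beta bars of J164_19 and J165_23 are nearly all Cacnb4.

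The alpha2delta class was carried by Cacna2d1 (chromosome 5, 15934691 to 16374511, plus strand), which led in all 17 cells with at least 10 reads of a member of the class. The NR cells had normalized counts of 947, 95.9, 934, 409 and 540, and the M-type cells 364, 109, 1002, 643 and 343. In S-type they ran from 5.19 to 637 with a median of 171.7, and in T-type from 0 to 684 with a median of 3.05. The T-type reads were 486 in J161_9, 24 in J166_25, and at most 1 in each of the other 4 cells. All 10 cells of M-type and NR lay above 5 of the 6 T-type cells, and the share of all genes with this pattern was not counted either. The T-type level of 118 ± 278 was 4.29 without J161_9.

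Set against NR, the Cacna2d1 level in T-type was 4.98-fold lower (log2 ratio -2.31, interval -2.45 to -2.18), and the log2 ratio was -7.09 without J161_9 and -1.74 without J162_16 and J163_18. Against S-type it was 2.30-fold lower (log2 ratio -1.20). That difference fell short of 2-fold when any 1 of the T-type cells other than J161_9 was left out (log2 ratios -0.97 to -0.94), and also without S-type cell J154_8 (-0.75) or J155_9 (-0.92). Without J162_16 and J163_18 it was -0.63, so that Cacna2d1 was then within 2-fold of S-type.

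Cacna2d2 (chromosome 9, 107399612 to 107529343, plus strand) was read in 7 cells, with 71 reads in NR, 89 in M-type, 22 in T-type and 4 in S-type. In M-type all of them were in J175_18. NR cell J187_6 held 89.9% of the NR level and T-type cell J161_9 held 84.4% of the T-type level. After thinning to the smallest library no cell kept 10 reads of it.

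Cacna1c, Cacnb2, Cacnb3 and Cacna2d1 were the members with a level at least 2-fold lower in T-type than in both S-type and NR. The 250 bases that RefSeq places upstream of a start site (build GRCm38.p6) are shown for Cacna1c, Cacnb3 and Cacna2d1, 1 window each. They are the stretches before single start sites, which need not lie before the gene. Windows that overlap an annotated exon, such as those of Cacnb2, are not shown. CG dinucleotides are in capitals and the sequence runs 5′ to 3′ on the strand of the gene.
Cacna1c: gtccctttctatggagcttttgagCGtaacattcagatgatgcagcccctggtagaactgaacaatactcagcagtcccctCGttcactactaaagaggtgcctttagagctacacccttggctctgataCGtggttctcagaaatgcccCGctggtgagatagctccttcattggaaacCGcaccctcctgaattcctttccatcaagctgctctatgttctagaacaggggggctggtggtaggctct
Cacnb3: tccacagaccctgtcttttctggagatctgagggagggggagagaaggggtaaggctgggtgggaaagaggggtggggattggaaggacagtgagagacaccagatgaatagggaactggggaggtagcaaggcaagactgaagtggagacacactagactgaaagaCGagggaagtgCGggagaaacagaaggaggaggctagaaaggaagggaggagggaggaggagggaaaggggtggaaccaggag
Cacna2d1: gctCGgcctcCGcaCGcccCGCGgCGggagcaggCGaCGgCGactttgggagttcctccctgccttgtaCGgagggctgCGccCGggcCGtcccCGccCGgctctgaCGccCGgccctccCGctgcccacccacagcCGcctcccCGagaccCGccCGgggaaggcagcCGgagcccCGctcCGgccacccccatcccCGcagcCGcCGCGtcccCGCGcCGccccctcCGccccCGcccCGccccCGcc
The windows lie at chr6:118757975-118758224 (minus strand), chr15:98632078-98632327 (plus strand) and chr5:15934441-15934690 (plus strand). They hold 5, 2 and 36 CG. Of all 32851 windows of this length in the table, 55.6%, 81.2% and 2.58% hold at least as many, and the median is 6. Cacna1c also has windows with 2 and 48 CG, and Cacnb3 one with 23 CG, which overlap annotated exons and are not shown. At least as many CG are held by 81.2%, 0.186% and 13.3% of all windows. The CG content shown for Cacna1c and Cacnb3 thus does not stand for all start sites of these genes. The Cacna1c window shown belongs to an internal start site of the gene. The Cacnb3 window shown also lies within the span of its gene. Counts per gene do not say which start site was used, and CG content was not related to the levels here.

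A cell was counted as holding the whole set of high-voltage-activated channel subunits when at least 1 pore, 1 beta and 1 alpha2delta member had at least 10 reads each. This was so in 5 of 6 S-type cells, 2 of 6 T-type cells, 5 of 5 M-type cells and 5 of 5 NR cells. The 2 T-type cells were J161_9 and J166_25. The 4 other T-type cells, and S-type cell J156_16, had fewer than 10 reads of each alpha2delta member. J162_16 and J163_18 also had fewer than 10 reads of each beta member, and J162_16 of each pore.

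Without J162_16 and J163_18 the set was whole in 2 of 4 T-type cells. With every cell thinned to the smallest library it was whole in 0 of 6 T-type cells, 5 of 6 S-type cells, 5 of 5 M-type cells and 5 of 5 NR cells. J164_19 and J165_23 had 0 and 1 alpha2delta reads beside 1271 and 1979 reads of Cacnb4. Outside J162_16 and J163_18, J164_19 had the smallest size factor (0.548) and J165_23 the fewest genes with a read (8647). Over all 12719 genes, T-type without J162_16 and J163_18 had at least 10 reads in 58.1% of pairs. The other types had 71.5% to 72.9%. Whether the quality of the libraries had a part in the low alpha2delta reads of T-type was not tested.

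**Figure D3:**
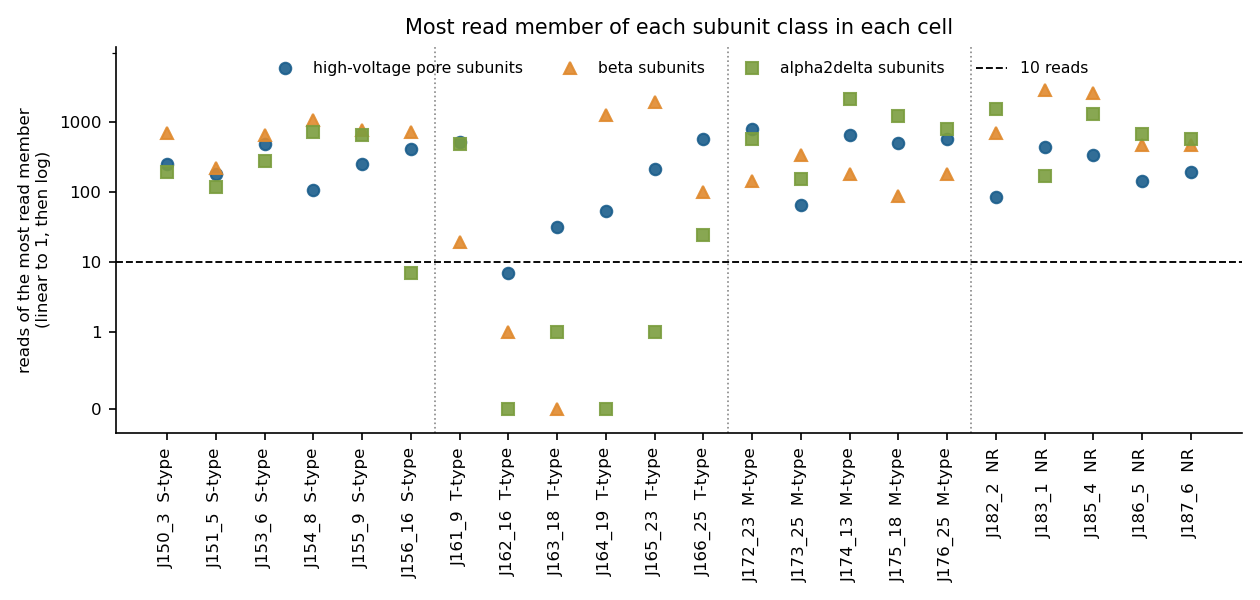
Reads of the most read high-voltage pore, beta and alpha2delta member (vertical axis, linear up to 1 and logarithmic above) in each of the 22 cells (horizontal axis, dotted lines between types), with the limit of 10 reads dashed. The alpha2delta symbols fall below the limit in 4 T-type cells and in S-type cell J156_16, and all 3 symbols lie above it in every M-type and NR cell.

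The comparison of T-type with S-type set a transient against a sustained calcium signal. Of the 9 members with a ratio, 4 were at least 2-fold lower in T-type (Cacna1c, Cacnb2, Cacnb3 and Cacna2d1), where 32.5% of the 12517 genes with a ratio were lower by as much. In the other direction 2 were at least 2-fold higher (Cacnb1 and Cacna2d2), against 25.7% of all genes. The median log2 ratio was -0.19 over the members and -0.09 over all genes. The members' count lay near the background in either direction. Cacnb1 (log2 ratio 3.20) and Cacna2d2 (3.31) were higher through J166_25 and J161_9, and their log2 ratios were -0.35 and 0.89 without these cells. Without S-type cell J155_9 the first was 3.78, and without J150_3 or J154_8 the second was 4.06 or 4.04. Cacna1c (log2 ratio -1.81, interval -2.27 to -1.36) depended on S-type cell J154_8, without which it was -0.31, and on J166_25, without which it was -7.36, and it was -1.22 without J162_16 and J163_18. Among the 6, Cacnb2 and Cacnb3 alone stayed past 2-fold when any 1 cell was left out. Without J162_16 and J163_18, 3 members were lower (36.3% of all genes) and 3 were higher (21.7%). Cacnb1 was then at a log2 ratio of 3.78, Cacna2d2 at 3.65 and Cacnb4 at 1.26, past 2-fold.

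The other 3 comparisons took NR, the cells that did not respond, as the common reference, so they share the NR cells and are not independent of each other. In T-type versus NR, 6 of 9 members were at least 2-fold lower (Cacna1c, Cacnb1, Cacnb2, Cacnb3, Cacna2d1 and Cacna2d2), against 32.8% of 12508 genes, and 0 were at least 2-fold higher, against 28.4%. The median log2 ratio was -1.14 over the members and -0.07 over all genes. Cacna1c was 12.5-fold lower (log2 ratio -3.65, interval -4.07 to -3.25), with -9.20 without J166_25, -3.05 without J187_6 and -3.06 without J162_16 and J163_18. Cacnb2, Cacnb3, Cacna1c and Cacna2d1 stayed at least 2-fold lower when any 1 cell was left out. Cacnb1 (log2 ratio -1.14) fell short of 2-fold without any 1 T-type cell other than J166_25 (-0.88), and without NR cell J185_4 (-0.87) or J186_5 (-0.70), and was -4.69 without J166_25. Cacna2d2 (log2 ratio -1.08) was 1.90 without NR cell J187_6, -3.50 without J161_9 and -0.82 without any 1 of the 4 T-type cells that lacked it. Cacna1a was just short of 2-fold higher (log2 ratio 0.98), and its log2 ratio was -1.48 without J161_9 and 1.01 to 1.32 without any 1 of 8 other cells. It was 0.058 with mean CPM, 0.29 with CPM of pooled reads, 1.04 with TMM factors and -1.49 with medians over cells, so neither its size nor its direction held across these alternatives. Without J162_16 and J163_18, 4 members were lower (36.4% of all genes) and 1, Cacna1a (log2 ratio 1.41), was higher (24.0%). Cacnb1 was then at -0.56 and Cacna2d2 at -0.74, short of 2-fold, and Cacna1d at 0.59.

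In S-type versus NR, 5 of 9 members were at least 2-fold lower (Cacna1c, Cacnb1, Cacnb2, Cacna2d1 and Cacna2d2), against 22.5% of 12621 genes, and 2 were at least 2-fold higher (Cacna1a and Cacnb3), against 25.1%. The median log2 ratio was -1.11 over the members and 0.03 over all genes. Cacna1a was 2.25-fold higher (log2 ratio 1.17, interval 1.03 to 1.32), with 0.91 without NR cell J187_6. Cacnb3 was 2.56-fold higher (log2 ratio 1.36) and depended on J150_3, without which the log2 ratio was -0.094, and it was 2.07 without J187_6. Cacnb1 had 10 reads in S-type and 170 in NR (log2 ratio -4.34, interval -5.42 to -3.42, and -4.92 without J155_9). Cacna2d2 had 4 and 71 reads (log2 ratio -4.40, interval -6.31 to -2.98), and its log2 ratio was -1.41 without J187_6, -5.14 without J150_3 and -5.12 without J154_8. Cacna1c (-1.84) was -3.34 without J154_8 and -1.24 without J187_6. Cacna2d1 was 2.16-fold lower (log2 ratio -1.11), which fell short of 2-fold without J151_5 (-0.96), J156_16 (-0.85), J182_2 (-0.87) or J185_4 (-0.88).

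In M-type versus NR, 5 of 9 members were at least 2-fold lower (Cacna1c, Cacnb1, Cacnb2, Cacnb3 and Cacnb4), against 28.1% of 12616 genes, and 1 was at least 2-fold higher (Cacna1a), against 19.8%. The median log2 ratio was -1.40 over the members and -0.20 over all genes. All 4 beta subunits were among those lower, while Cacna2d1 (log2 ratio -0.25) and Cacna1d (-0.16) were within 2-fold. Of the 4 beta subunits, Cacnb2 and Cacnb3 alone stayed past 2-fold when any 1 cell was left out. Cacnb4 (log2 ratio -2.55) fell short of it without J185_4 (-0.97). Cacna1a was 3.68-fold higher (log2 ratio 1.88, interval 1.75 to 2.01), and leaving out each cell in turn moved this between 1.53 and 2.21. Cacnb3 was 7.51-fold lower (log2 ratio -2.91, with -3.82 without J176_25 and -2.20 without J187_6). Cacnb1 (-1.40) fell short of 2-fold without J186_5 (-0.96) and was -3.36 without J175_18. Cacna1c (-2.86) was -4.01 without J173_25 and -2.27 without J187_6.

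In each of the 3 comparisons with NR, the share of members at least 2-fold lower was above that of all genes. These 3 counts share the same 5 NR cells and cover 9 genes only. Leaving out each cell in turn gave 4 to 6 lower members in T-type, 4 to 5 in S-type and 4 to 6 in M-type.

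Some ratios within 2-fold also rested on single cells. Cacna1a in T-type versus S-type (log2 ratio -0.19) was -2.65 without J161_9, and was 0.24 without J162_16 and J163_18. It was -0.998 with mean CPM and -2.77 with medians over cells. Cacna1d, whose log2 ratio was 0.37 in T-type and 0.42 in S-type against NR, was 1.04 and 1.09 without J183_1 and 1.01 and 1.06 without J185_4. In M-type versus NR it was -0.16 and was -1.03 without J176_25. With medians over cells, Cacna1d was at 4.82 in T-type, 4.31 in S-type and 3.67 in M-type against NR, where 3 of the 5 cells were low. Cacnb4 in T-type was at a log2 ratio of 0.68 to S-type, which was 1.2 without J154_8, and of 0.24 to NR, which was 1.82 without J185_4 and 0.83 without J162_16 and J163_18. With medians over cells these ratios were -4.54 and -3.78. In S-type versus NR it was -0.43 and was 1.15 without J185_4. Cacna2d2 in M-type versus NR (log2 ratio -0.42) was -4.95 without J175_18 and 2.57 without J187_6, and was 0.17 with mean CPM and 0.12 with CPM of pooled reads.

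**Figure D4:**
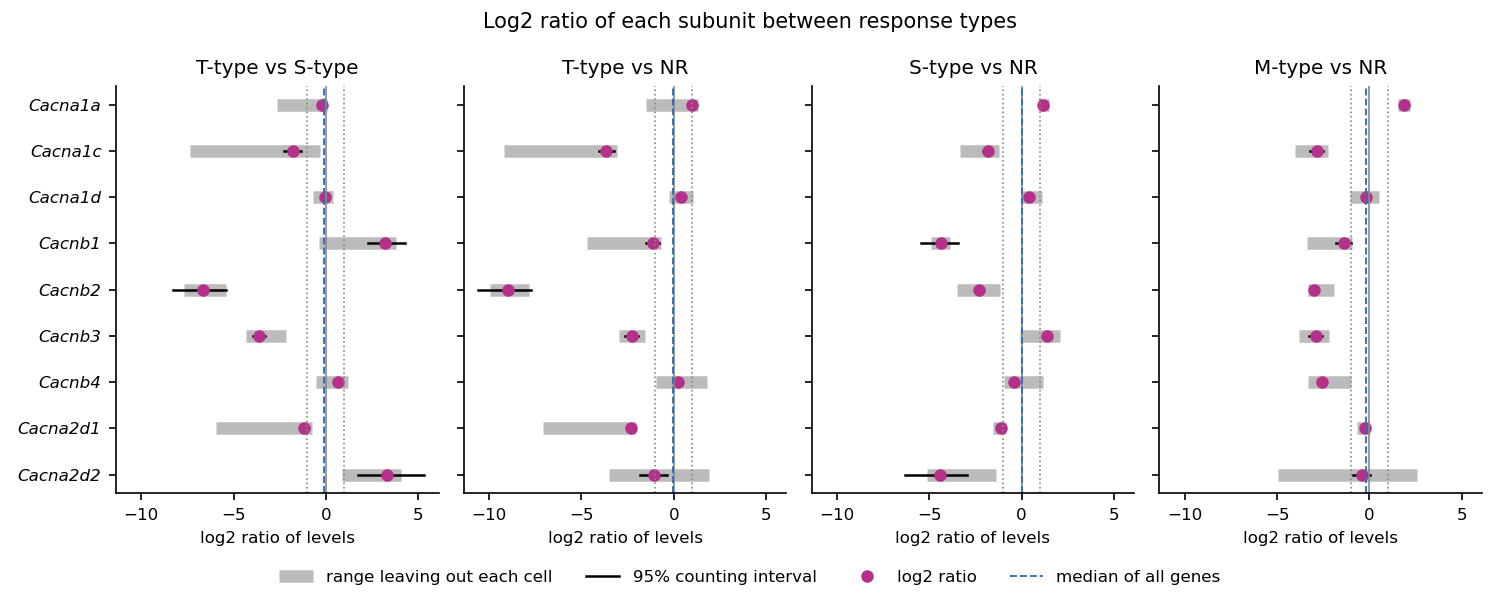
Log2 ratio of levels (horizontal axis) of 9 subunits (vertical axis) in the 4 comparisons. Points are the ratios, black lines the 95% counting intervals, grey bars the range on leaving out each cell in turn, dotted lines 2-fold and dashed lines the median of all genes. The grey bars of Cacnb2 stay left of the 2-fold line in all 4 panels, and many other grey bars are far wider than the counting intervals.

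Over the 4 types, NR had the highest level for 5 of the 9 members (Cacna1c, Cacnb1, Cacnb2, Cacna2d1 and Cacna2d2), as it had for 26.6% of the 12719 genes. S-type had the highest for 2 (Cacna1d and Cacnb3, with 24.5% of genes), M-type for Cacna1a (17.1%) and T-type for Cacnb4 (31.9%). T-type had the lowest level for 3 members (Cacna1c, Cacnb2 and Cacna2d1), as it had for 32.5% of genes, and M-type for 3 others (Cacna1d, Cacnb3 and Cacnb4), as it had for 26.1%. S-type was lowest for 2 (Cacnb1 and Cacna2d2, with 19.1% of genes) and NR for Cacna1a (22.3%). The lowest type was the same for each member without J162_16 and J163_18, and T-type took the highest level of Cacna1d from S-type. Other places rested on few cells. By medians over cells T-type was lowest for Cacnb4 (15.2, M-type 78.2) and Cacna1a (28.4, NR 79.5). NR was then highest for Cacnb3 (37.0, S-type 15.0) and lowest for Cacna1d (4.19). For Cacna1c, Cacnb2 and Cacna2d1 NR stayed highest and T-type lowest. Without J187_6 the NR level of Cacna2d2 was 1.56, below M-type at 9.23. When the 4 types were ordered by level, the cells of neighbouring types overlapped for every member except in the step from M-type to T-type in Cacnb2.

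Correlations from cell to cell were computed for Cacna1a, Cacnb4 and Cacna2d1 only. Over the 22 cells, which differ in depth and type, the Spearman rho of log2 normalized counts was 0.51 between Cacna1a and Cacna2d1 (rank 270 among 11844 genes for Cacna1a), 0.47 between Cacna2d1 and Cacnb1 (rank 502 for Cacna2d1), -0.27 between Cacna1a and Cacnb4, and -0.39 between Cacna2d1 and Cacna1d. Among these genes, those most like Cacna1a were Trmt11 (rho 0.82) and Rufy2 (0.81). Those most like Cacnb4 were Trim47 (0.78) and Exosc6 (0.78), and those most like Cacna2d1 were Ino80c (0.75) and Trim16 (0.75). These correlations are descriptions only.

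Of 16 further channel subunits, 11 had a read and 5 had a read in at least 5 cells (Cacna1e, Cacna1h, Cacna2d3, Cacng7 and Cacng8). Cacna1b, the N-type pore, and Cacna1i, Cacna2d4, Cacng1 and Cacng3 were at 0 in all 22 cells. Against S-type, T-type had 1 of 3 genes with a ratio at least 2-fold higher (25.7% of all genes) and 1 lower (32.5%), and against NR 2 of 5 higher (28.4%) and 2 lower (32.8%). S-type had 1 of 5 higher (25.1%) and 3 lower (22.5%) than NR, and M-type 2 of 5 higher (19.8%) and 2 lower (28.1%). With 3 to 5 genes nothing can be read from these counts beside the background. Cacna1h, another low-voltage-activated pore, had 1347 reads in 13 cells, in contrast to the 1 read of Cacna1g. Its level was 111 ± 218 in S-type and 91.9 ± 225 in T-type, against 21.5 ± 29.7 in NR and 17.2 ± 23.6 in M-type. The T-type level rested on J163_18, with 99.9% of it, and the S-type level on J156_16, with 82.8%. Cacna2d3, a further alpha2delta subunit, had no read in T-type, 31 in S-type, 35 in M-type and 553 in NR, 83.7% of the NR level being in J183_1. The 4 T-type cells with fewer than 10 reads of each alpha2delta member thus had no read of Cacna2d3 either, a gene read in 6 of the 22 cells. Cacna1e, the R-type pore, had 21 reads. Cacng7 and Cacng8, better known as partners of AMPA receptors, had 357 and 26, and 239 of the Cacng7 reads were in J161_9.

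Of 8 listed regulators of these channels, all had a read and 4 had a read in at least 5 cells. Against S-type, T-type had 2 of 4 at least 2-fold higher (25.7% of all genes) and 1 lower (32.5%), and against NR 1 higher (28.4%) and 2 lower (32.8%). S-type had 0 of 4 higher (25.1%) and 1 lower (22.5%) than NR, and M-type 1 higher (19.8%) and 1 lower (28.1%). Here too nothing can be read from counts of so few genes. Gem, a small GTPase that binds beta subunits and inhibits high-voltage-activated channels, had 17769 reads and was read in every cell. Its level was 1726 ± 3538 in T-type and 1139 ± 1133 in M-type, against 271 ± 238 in S-type and 245 ± 229 in NR. J162_16 held 86.1% of the T-type level, which was 289 without it. The 5 M-type cells ran from 319 to 2939 and overlapped the NR cells at 3.04 to 501. Rrad, a related GTPase, had 125 reads in NR and 11 in S-type and none in the other types. Stac, an adaptor of L-type pores, had levels of 32.3 in T-type, 19.7 in NR, 11.9 in S-type and 9.90 in M-type, and J164_19 held 99.7% of the T-type level. Dos, the older symbol of Cbarp, which binds beta subunits, had levels of 16.0, 41.5, 38.7 and 51.3 in the same order.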

How the data were processed

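RNA of 22 single astrocytes (5 NR, 5 M-type, 6 T-type and 6 S-type) was amplified as antisense RNA in 2 rounds and sequenced from stranded TruSeq libraries. After trimming, the authors mapped reads to GRCm38 using STAR and deposited raw counts of exonic reads per gene symbol from VERSE, a modified HTSeq (the labels list STAR and HTSeq). Versions and the use of strand in counting are not given in the sources used here. The table has no normalization, and its response types matched the labels for all 22 cells.

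Size factors were medians of ratios over 3670 genes read in all cells (NumPy 2.4.6, pandas 2.3.3, Python 3.11.15). Levels were means of normalized counts over the cells of a type, with a floor of 3 reads over the type where it had none. Log2 ratios of levels were formed and called at 2-fold in the 4 contrasts of the study. No ratio was formed where both types had at most 3 reads, and the background was the share, among genes read in 5 or more cells, that passed the same fold. With 1 sample per type no test was run. Ratio intervals used the Clopper-Pearson split of reads between 2 types and read intervals from the exact Poisson distribution (SciPy 1.17.1), and both cover counting error only. Depth was 2937786 to 22131076 reads per cell. The steps were tested on simulated data.

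Exon lengths and positions came from GENCODE vM21 and upstream windows from RefSeq, which held 8 of the 10 members. The subunits and the lists of further subunits, regulators and markers were chosen with earlier results of these data known. All 10 members are named, other listed genes only with a read in at least 5 cells, and for Cacna1a, Cacnb4 and Cacna2d1 the 2 genes with the highest Spearman rho at a mean level of at least 10. The 5 further subunits at 0 in all cells are named beside this rule. Alternatives were TMM factors (edgeR 4.0.16, R 4.3.3), mean CPM, CPM of pooled reads, thinning, a pseudocount of 1, medians over cells, other filters and limits of detection, and leaving out each cell. Leaving out J162_16 and J163_18 together was added after seeing the data. Figures were drawn with matplotlib 3.10.9. The calcium recordings and the time of collection of a cell were not used here.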

Additional observations from a re-analysis of the deposited data

Results flagged for a closer look

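Within each type, 28 sets of normalized counts of a member with a level of at least 10 were examined for a highest or lowest cell far from the others by Dixon's ratio. Its critical value is passed by chance in about 1 in 20 sets of normally distributed values, and these are skewed counts with zeros, so that the number of sets found cannot be read against that rate. In 9 sets the highest cell stood apart. In T-type these were Cacna1a in J161_9 (738, others 1.82 to 65.5), Cacna2d1 in J161_9 (684, others 0 to 15.4) and Cacnb1 in J166_25 (64.7, the other 5 cells at 0, which fixes the ratio at 1). In S-type they were Cacna1c in J154_8 (90.2, others 0 to 33.5) and Cacnb2 in J153_6 (407, others 0 to 118). In M-type it was Cacna1d in J176_25 (251, others 16.9 to 79.5). In NR they were Cacnb2 in J183_1 (1622, others 0 to 422), Cacnb4 in J185_4 (1872, others 10.8 to 439) and Cacna2d2 in J187_6 (55.6, others 0 to 6.24). J161_9 stood apart in 2 of them.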

How the results depend on the processing

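Of the 36 log2 ratios of members, 25 were past 2-fold, and 14 of these stayed past it when any 1 cell was left out. Their sign was kept in 430 of 434 alternative values. The 4 reversals were Cacnb1 in T-type versus S-type without J166_25 (-0.35, with a range of -0.35 to 3.78 over the cells left out), Cacna2d2 in T-type versus NR without J187_6 (1.90, range -3.50 to 1.90), and Cacnb3 in S-type versus NR without J150_3 (-0.094, range -0.094 to 2.07) and with medians over cells (-1.30). Medians over cells gave 0 members at least 2-fold higher in T-type versus S-type, 1 in T-type versus NR and 2 in M-type versus NR. TMM factors gave 1 in T-type versus NR, as did leaving out J162_16 and J163_18, an alternative chosen after seeing the data. On leaving out each cell in turn, the members at least 2-fold higher numbered 1 to 3 in T-type versus S-type, 0 to 3 in T-type versus NR, 1 to 4 in S-type versus NR and 1 to 2 in M-type versus NR. Those at least 2-fold lower numbered 2 to 5, 4 to 6, 4 to 5 and 4 to 6. The whole set of subunits was found in 0 T-type cells after thinning, and in 3 when 1 read of each class sufficed. The cause of these changes was not tested. Mean CPM shifted the median log2 ratio of all genes by -0.37 in T-type versus S-type and by -0.40 in T-type versus NR, and CPM of pooled reads by -0.48 in both. Relative to that median, the members' median in T-type versus NR was -1.08 as reported and -1.31 to -0.89 under the other scalings, and in T-type versus S-type it was -0.10 and -0.54 to 0.02. Genes with few reads, such as Cacna2d2 and Cacnb1, are limited by depth.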
